A study of Mus musculus with 16 samples.

Results

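The gut epithelium takes up dietary vitamin A through a short chain of proteins. Here 7 genes of its uptake, metabolism and retinoic acid response were followed: Scarb1, Isx, Rbp2, Lrat, Rdh7, Aldh1a1 and Rarb. They were chosen by symbol from the 24421 genes of the count tables. Epithelium was released with EDTA from the jejunum and the ileum of wild-type C57BL6/J mice, 4 at postnatal day 6 (P6, suckling) and 4 at postnatal day 36 (P36, after weaning), and its mRNA was sequenced. Every mouse gave both regions, which made 16 libraries in 4 groups of 4. Replicates 1 and 2 were female and replicates 3 and 4 male at both ages, and a replicate number names the same mouse in both regions of an age. No group carried a transgene, a deletion or a treatment, and a P6 mouse differed from a P36 mouse in diet as well as in age. Total counts lay between 12159237 and 25947276 per library. Of the 7 genes, 6 passed the filter on low counts and Rarb did not.

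Retinyl esters and carotenoids arrive in the lumen with milk or solid food. Esters are hydrolysed to retinol, which enterocytes take up, bind to a cellular retinol-binding protein, esterify again and pack into chylomicrons. Carotenoids enter through a scavenger receptor and are cleaved to retinal. Part of the retinal is oxidised to retinoic acid, the ligand of the nuclear retinoic acid receptors, and retinoic acid turns on Isx, a homeobox repressor of carotenoid uptake and cleavage.

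The 7 genes did not move as a block. Rbp2 was 11.7-fold higher in the jejunum than in the ileum at P6 and 16.9-fold higher at P36. Scarb1 fell 18-fold and Lrat 8.98-fold from P6 to P36 in the jejunum, while Rdh7 rose 14.4-fold and Aldh1a1 5.23-fold there. The same 4 genes changed in the same directions in the ileum. Isx differed by at most 1.21-fold between groups that were neighbours in its order of levels. Rarb had 19 counts over all 16 libraries.

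**Figure D1:**
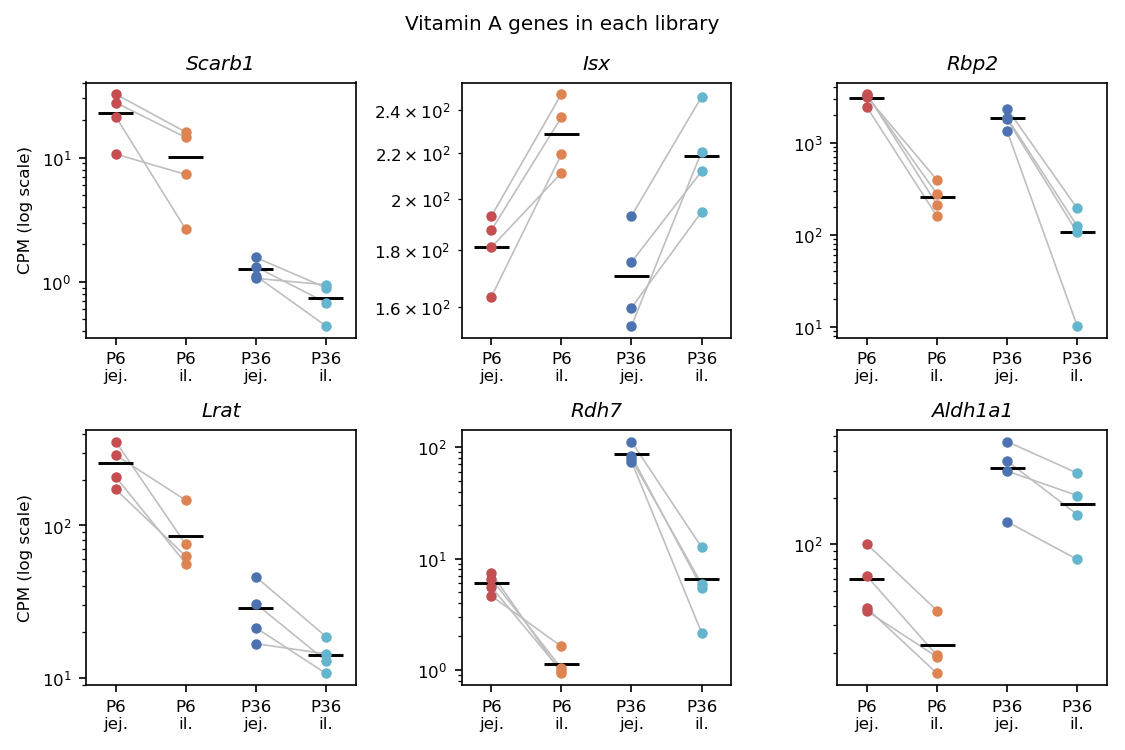
CPM (counts scaled to the library total and corrected for composition) of the 6 tested genes in each of the 16 libraries, on a log axis whose range differs between panels. Points are libraries, grey lines join the jejunum and ileum of a mouse, and black bars are group means (n = 4). Rbp2 and Rdh7 were lower in the ileum than in the jejunum of every mouse, Scarb1 and Lrat were lower at P36 than at P6 without overlap in either region, and Isx stayed between 154 and 248 CPM.

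Before the values, the libraries themselves need a description. The 6 markers of enterocytes had counts in every library, and the summed level of that list was 9366 to 11250 CPM in the P6 jejunum, 4801 to 5552 CPM in the P6 ileum, 23050 to 31170 CPM in the P36 jejunum and 7518 to 32010 CPM in the P36 ileum. The sum is no measure of how many enterocytes a library held, since its members moved unequally. Fabp2, for a fatty acid-binding protein, was at 3916 to 6002 CPM in the P6 jejunum and 239 to 949 CPM in the P6 ileum, where Epcam, a pan-epithelial gene, was at 1137 to 1380 and 1747 to 2139 CPM and Cdh1, for E-cadherin, at 807 to 832 and 792 to 868 CPM. Markers of other cell types moved with age in both regions. From P6 to P36 the summed level went from between 23.0 and 806.3 to between 4204 and 14620 CPM for 4 Paneth cell markers, from between 1531 and 3583 to between 6778 and 14320 CPM for 5 goblet cell markers, and from between 0.349 and 2.84 to between 6.73 and 15.8 CPM for 3 tuft cell markers. The sum of 5 myeloid and dendritic markers went from between 169 and 511 to between 22.2 and 55.1 CPM, a fall carried by Csf1r, while Itgam was higher at P36. The part of these shifts in the age differences given below was not tested. Replicate 2 of the P6 ileum stood out for markers of the gut wall: the summed level of 5 smooth muscle markers was 188.4 CPM there and 0.237 to 2.99 CPM in the others, and that of 6 fibroblast markers was 245.2 CPM there and 5.27 to 61.9 CPM in the others. Replicate 4 of the P6 ileum differed from its group by over 2-fold in 29.7% of the 13429 tested genes, against 3.36% to 11.4% in the other libraries. Replicates 1 and 3 of the P36 ileum had the highest and the lowest enterocyte sums of their group, 32010 and 7518 CPM. Each result was therefore also computed without these 4 ileal libraries. In bulk samples, fewer cells of a type and less RNA of a gene per cell cannot be told apart.

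A gene was called different where its adjusted p was below 0.05 and its log2 fold change was above 2 in either direction (edgeR's quasi-likelihood test over all 16 libraries, Benjamini-Hochberg adjustment over 13429 genes). Between the regions at P6, 2 of the 6 tested genes were called, both higher in the jejunum, where the call rate over all genes was 6.50% in either direction and 2.20% for higher in the jejunum. The same count at P36 was 2 of 6, again both jejunal, against 3.60% and 2.06% of all genes. Without the fold minimum the counts were 5 of 6 at P6, against 25.9% of all genes, and 3 of 6 at P36, against 16.1%. With age, 4 of 6 were called in the jejunum against 16.4% of all genes, 2 up (7.86% of all genes) and 2 down (8.59%). In the ileum 4 of 6 were called, also against 16.4%, 2 up (6.40%) and 2 down (10.0%). In the test of whether the regional difference itself changed with age (the interaction), 0 of 6 were called by edgeR at an adjusted p below 0.05, against 8.69% of all genes. DESeq2 also called 0. At an unadjusted p below 0.05 each tool had 1 of the 6, beside 3071 of the 13429 tested genes by edgeR. Groups that did not overlap were found for 4 of the 6 genes between the regions at P6, for 4 at P36, for 5 with age in the jejunum and for 4 with age in the ileum, where 30.1%, 26.9%, 63.8% and 44.4% of all tested genes did not overlap.

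**Figure D2:**
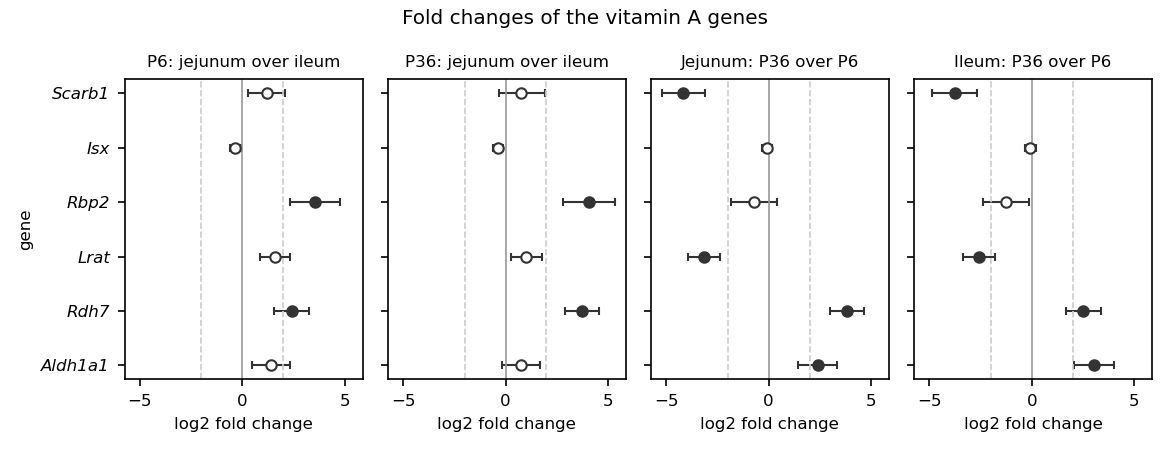
Log2 fold changes of the 6 tested genes in the 4 comparisons, with 95% confidence intervals from the fit over 16 libraries. Filled points were called, open points were not, and dashed lines mark a log2 fold change of 2 in either direction. Rbp2 and Rdh7 lay above 2 in both regional comparisons, and Scarb1 and Lrat lay opposite to Rdh7 and Aldh1a1 with age.

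Uptake at the brush border comes first. Scarb1 (mm10 chr5:125277087-125341094, minus strand, 13 exonic blocks) encodes scavenger receptor class B type 1, which takes up carotenoids, cholesterol and other lipids. In the P6 jejunum it stood at 32.4, 10.7, 27.7 and 21.4 CPM in replicates 1 to 4. In the P6 ileum it stood at 16.0, 7.32, 14.5 and 2.65 CPM. All P36 libraries were lower than all P6 libraries, at 1.07 to 1.57 CPM in the jejunum and 0.442 to 0.950 CPM in the ileum. The P36 values rest on 8 to 35 counts a library.

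The fall of Scarb1 with age was 18-fold in the jejunum (log2 fold change -4.17, SE 0.50, adjusted p = 3.59e-06 by edgeR) and 13.6-fold in the ileum (-3.76, SE 0.51, adjusted p = 1.46e-05). Its groups ranked P6 jejunum, P6 ileum, P36 jejunum and P36 ileum, and only the P6 pair overlapped. The jejunum was higher than the ileum in 4 of 4 mice at each age. At P6 the excess was 1.46-fold to 2.02-fold in mice 1, 2 and 3. It was 8.08-fold in mouse 4, whose ileal library stood apart from its group. At P36 the excess was 1.12-fold to 2.53-fold. Those regional differences were not called: the log2 fold change was 1.19 at P6 (adjusted p = 0.053, 95% interval 0.27 to 2.10) and 0.78 at P36 (adjusted p = 0.369, interval -0.34 to 1.91). With the mouse as a block, the P6 value was 1.32 with an adjusted p of 0.0222, still under the fold minimum, and over 20 alternatives the adjusted p lay between 0.0133 and 0.2.

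Isx (chr8:74873174-74893506, plus strand, 4 exonic blocks) encodes the intestine-specific homeobox factor, the repressor of Scarb1 and of the carotenoid-cleaving enzyme gene Bco1. It was measured at 180.9, 187.4, 163.3 and 192.9 CPM in the P6 jejunum and at 210.9, 236.6, 219.2 and 248.2 CPM in the P6 ileum. At P36 it was measured at 153.8, 175.5, 193.0 and 159.7 CPM in the jejunum and at 220.3, 211.6, 246.8 and 194.6 CPM in the ileum. The ileum was the higher region in each of the 8 mice, and no library of one region overlapped the other at the same age.

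The regional difference of Isx was small, 1.26-fold at P6 (log2 fold change -0.34, SE 0.12, adjusted p = 0.0438 by edgeR) and 1.28-fold at P36 (-0.36, SE 0.12, adjusted p = 0.0479). It was under the fold minimum at both ages. Its adjusted p was near the threshold: with 1 library left out, it was below 0.05 in 3 of 8 fits at P6 and in 1 of 8 at P36, and over all alternatives it ran from 0.00187 to 0.202 and from 0.00556 to 0.154. No change with age was detected. The 95% interval of the log2 fold change from P6 to P36 was -0.33 to 0.16 in the jejunum and -0.31 to 0.18 in the ileum. Isx had the smallest spread among replicates of the 6 genes in every group, with a coefficient of variation of 7.10% to 10.3%.

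Inside the cell, retinol is bound by RBP2. Rbp2 (chr9:98490537-98509771, plus strand, 4 exonic blocks) encodes the intestinal cellular retinol-binding protein. By group mean it was the most abundant of the 7 genes in every group on the scale that corrects for exon length. Its mean RPKM (CPM per kilobase of exon) was 4521 ± 627 (SD, n = 4) in the P6 jejunum, 386 ± 150 in the P6 ileum, 2716 ± 610 in the P36 jejunum and, lowest, 161 ± 112 in the P36 ileum. The next of the 7 in the P6 jejunum was Isx, at 101 ± 7.18 RPKM. In replicate 3 of the P36 ileum the rank did not hold, with Rbp2 at 15.19, Isx at 137.7 and Aldh1a1 at 39.35 RPKM.

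By library, Rbp2 stood at 3240, 3136, 2421 and 3356 CPM in the P6 jejunum and at 275.5, 391.9, 157.5 and 211.8 CPM in the P6 ileum. At P36 it stood at 2331, 1779, 1331 and 1860 CPM in the jejunum and at 192.8, 105.6, 10.21 and 123.9 CPM in the ileum. The regions did not overlap at either age, and the lowest value by far was replicate 3 of the P36 ileum. The log2 fold change of jejunum over ileum was 3.55 (SE 0.58, adjusted p = 0.000316 by edgeR) at P6 and 4.08 (SE 0.60, adjusted p = 0.000211) at P36.

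Within mice, the jejunum exceeded the ileum by 8.00-fold to 15.9-fold at P6. At P36 the range was 12.1-fold to 16.8-fold in mice 1, 2 and 4 and 130.3-fold in mouse 3. In the P36 ileum the order of the libraries by Rbp2, replicate 1 highest, then 4, 2 and 3, was also their order by each of the 6 enterocyte markers, whose sums were 32010, 16230, 14080 and 7518 CPM, and the part of that in the Rbp2 level was not tested. Both regional calls held without the 4 ileal libraries named above, and over all alternatives the log2 fold change stayed between 3.26 and 3.82 at P6 and between 3.70 and 4.54 at P36. Rbp2 was not called with age, at -0.74 in the jejunum (adjusted p = 0.263, 95% interval -1.86 to 0.39) and -1.26 in the ileum (adjusted p = 0.0556, interval -2.40 to -0.13), although its jejunal libraries at P36 were all below those at P6.

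Rbp2 and Rdh7 were the 2 genes called between the regions at both ages. Their promoters are therefore shown, with that of Rarb, which holds the textbook binding element of the retinoic acid receptors. Each is the 250 bases before a RefSeq transcript start (GRCm38.p6, the assembly of mm10), 5′ to 3′ on the gene's strand. Capitals mark a nuclear receptor half-site, taken on either strand as the core AGGTCA, the variant AGTTCA, the variant GGGTCA or the variant GGTTCA.
Rbp2, chr9:98490287-98490536, plus strand: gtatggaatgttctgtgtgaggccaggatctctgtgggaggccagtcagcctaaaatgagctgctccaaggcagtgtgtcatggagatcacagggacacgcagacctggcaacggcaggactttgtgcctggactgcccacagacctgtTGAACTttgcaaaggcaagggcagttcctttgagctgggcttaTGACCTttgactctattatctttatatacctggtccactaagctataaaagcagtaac
Rdh7, chr10:127888734-127888983, minus strand: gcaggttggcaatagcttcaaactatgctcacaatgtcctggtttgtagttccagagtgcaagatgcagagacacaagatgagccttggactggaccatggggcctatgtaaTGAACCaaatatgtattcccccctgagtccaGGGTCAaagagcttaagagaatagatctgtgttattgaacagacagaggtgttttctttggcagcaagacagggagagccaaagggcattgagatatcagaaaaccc
Rarb, chr14:16575477-16575726, minus strand: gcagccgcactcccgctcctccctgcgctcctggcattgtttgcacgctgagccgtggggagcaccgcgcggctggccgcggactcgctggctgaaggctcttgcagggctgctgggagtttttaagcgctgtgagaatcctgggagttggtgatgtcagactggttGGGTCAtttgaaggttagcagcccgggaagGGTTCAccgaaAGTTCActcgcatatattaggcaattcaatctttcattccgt

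Promoters were found for 6 of the 7 genes. Single half-sites were common: 43.7% of 32841 promoters of the RefSeq table, each read from 250 bases before to 50 after the start, held at least 1. In the Rbp2 promoter the half-sites began 101 and 58 bases before the start, and in the Rdh7 promoter shown 138 and 107 bases before it. Half-sites were not confined to the promoters shown. One began 46 bases before the start of Isx, another 49 bases before a start of Aldh1a1 and another 105 bases before a further start of Rdh7. The Lrat promoter held none. A pair of half-sites in the same direction with 5 bases between them was rare, in 0.0974% of promoters. Rarb had this pair, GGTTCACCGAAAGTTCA, beginning 53 bases before the start. These matches are letters in a window and were not tested for binding.

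Rarb (chr14:16430840-17082331, minus strand, 11 exonic blocks) encodes retinoic acid receptor beta, whose gene is itself induced by retinoic acid in many tissues. It had 1 count in each of the 4 P6 jejunum libraries, 0, 10, 2 and 0 counts in its P6 ileal counterparts, 2, 0, 1 and 0 counts in the P36 jejunum, and 0 in all 4 libraries of the P36 ileum. A count of 0 over the 4 P36 ileum libraries allows a level of up to 0.0435 CPM, by the limit of 3 counts, which covers counting error only. Of the 12 counts in the P6 ileum, 10 were in replicate 2, the library in which the smooth muscle and fibroblast markers were highest, and their part in those counts was not tested. With no filter on low counts, Rarb was called lower at P36 in the ileum (fitted log2 value -4.52, adjusted p = 0.0404 by edgeR), and without that library it was not (-2.70, adjusted p = 0.202).

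The other retinoic acid receptor genes passed the filter. Rara, for receptor alpha, averaged 33.2 ± 2.42, 33.8 ± 20.8, 30.1 ± 1.79 and 34.0 ± 7.52 CPM (SD, n = 4) in the P6 jejunum, P6 ileum, P36 jejunum and P36 ileum. It was called in no comparison. Rarg, for receptor gamma, averaged 8.73 ± 1.75 CPM in the jejunum at P6 and 1.74 ± 0.769 CPM at P36, a called fall (log2 fold change -2.32, SE 0.36, adjusted p = 5.65e-05 by edgeR). In the ileum Rarg averaged 9.68 ± 4.28 CPM at P6 and 4.71 ± 0.487 CPM at P36, a difference that was not called (-1.04, adjusted p = 0.0167).

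Retinol is stored and exported as its ester. Lrat (chr3:82892582-82903974, minus strand, 2 exonic blocks) encodes lecithin retinol acyltransferase, which makes retinyl esters for chylomicrons. It stood at 208.6, 355.9, 172.6 and 290.4 CPM in the P6 jejunum and at 56.2, 75.2, 62.9 and 146.5 CPM in the P6 ileum. At P36 it stood at 46.0, 16.7, 21.3 and 30.6 CPM in the jejunum and at 18.6, 14.3, 10.7 and 12.9 CPM in the ileum. The 4 groups fell in that order, and only the P36 regions overlapped.

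Lrat fell with age by 8.98-fold in the jejunum (log2 fold change -3.17, SE 0.37, adjusted p = 2.94e-06 by edgeR) and by 6.03-fold in the ileum (-2.59, SE 0.37, adjusted p = 2.00e-05). The jejunum was higher than the ileum in 4 of 4 mice at both ages, by 1.98-fold to 4.73-fold at P6 and by 1.17-fold to 2.47-fold at P36. At P6 the log2 fold change was 1.59 (SE 0.35, adjusted p = 0.00317), under the fold minimum. Without the 4 ileal libraries named above it was 2.08 and was called (adjusted p = 0.00106), against an adjusted p of 4.83e-05 to 0.043 over all alternatives. At P36 the log2 fold change was 1.02 (adjusted p = 0.0614, and 0.0214 with the mouse as a block). Lrat and Rbp2 thus differed in which axis carried a call, region for Rbp2 and age for Lrat, and the genes were not tested against each other.

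Oxidation of retinol to retinal is the step of the retinol dehydrogenases. Rdh7 (chr10:127884027-127888733, minus strand, 4 exonic blocks) belongs to the short-chain dehydrogenases that act on retinol and on steroids. It was low at P6, at 4.62, 6.60, 5.57 and 7.42 CPM in the jejunum and 1.63, 1.03, 0.976 and 0.932 CPM in the ileum. The P6 ileum values rest on 33, 24, 18 and 19 counts. At P36 it stood at 112.2, 83.3, 74.4 and 78.1 CPM in the jejunum and at 12.7, 5.50, 2.17 and 5.94 CPM in the ileum. The P36 jejunum was above every other group, the P36 ileum overlapped the P6 jejunum, and the P6 ileum was below the rest.

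Rdh7 was the only one of the 7 genes called on both axes in every comparison of 2 groups. It rose with age by 14.4-fold in the jejunum (log2 fold change 3.84, SE 0.39, adjusted p = 5.97e-07 by edgeR) and by 5.70-fold in the ileum (2.51, SE 0.41, adjusted p = 8.04e-05). It was 5.27-fold higher in the jejunum at P6 (2.40, SE 0.41, adjusted p = 0.000418) and 13.3-fold higher at P36 (3.73, SE 0.39, adjusted p = 9.36e-06). Within mice the jejunum exceeded the ileum by 2.84-fold to 7.96-fold at P6 and by 8.86-fold to 34.4-fold at P36, ranges that did not overlap. The 34.4-fold value was mouse 3, whose P36 ileum library had the lowest enterocyte sum of its group. In the P36 ileum the libraries ranked the same by Rdh7 and by the enterocyte markers, and the part of the latter in the Rdh7 level was not tested.

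The widening of the regional difference of Rdh7 was not called over all 16 libraries. The interaction was -1.33 on the log2 scale (SE 0.54, adjusted p = 0.149 and unadjusted p = 0.0255 by edgeR). One library bore on it. Without replicate 1 of the P36 ileum, the highest for Rdh7 and for enterocyte markers in its group, the interaction was -1.88 (adjusted p = 0.0114), and the rise in the ileum was 1.97, just under the fold minimum. Without the 4 ileal libraries the interaction was -1.76 (adjusted p = 0.00808), and over 26 alternatives its adjusted p ran from 0.00808 to 0.457.

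Rdh7 sits in a cluster of 5 related genes, Rdh1, Rdh7, Rdh9, Rdh16 and Rdh19, within 129.0 kb of chromosome 10, and since reads that mapped to several places were not counted, levels of near-identical copies are uncertain. How many reads this touched was not measured. Rdh9 rose with age in both regions, from 3.55 ± 2.23 to 104.1 ± 29.9 CPM in the jejunum (log2 fold change 4.87, SE 0.59, adjusted p = 4.45e-06 by edgeR) and from 3.29 ± 1.15 to 91.6 ± 69.6 CPM in the ileum (4.80, SE 0.59, adjusted p = 5.09e-06; 4.17 without replicate 1 of the P36 ileum). Rdh16 had 5 counts over the P6 jejunum libraries and 10 over those of the P6 ileum, and 1417 and 1106 at P36. Neither Rdh9 nor Rdh16 was called between the regions, with log2 fold changes of 0.12 and -0.98 for the P6 regions and of 0.19 and 0.16 for the P36 regions.

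Rdh1 had the opposite regional pattern to Rdh7. At P6 it averaged 0.281 ± 0.195 CPM in jejunal and 2.44 ± 0.685 CPM in ileal epithelium, and 0.330 ± 0.206 and 3.15 ± 1.33 CPM at P36, and was called higher in the ileum at both ages (log2 fold changes -3.06 and -3.25, adjusted p = 0.000409 and 0.000411 by edgeR). Rdh19 had at most 11 counts in any group. Of the summed RPKM of the cluster, Rdh7 made up 74.6 ± 8.44% (SD, n = 4) in the P6 jejunum, 28.1 ± 6.11% in the P6 ileum, 55.5 ± 2.93% in the P36 jejunum but 9.72 ± 0.713% in the P36 ileum. These shares are given as values, with no test.

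**Figure D3:**
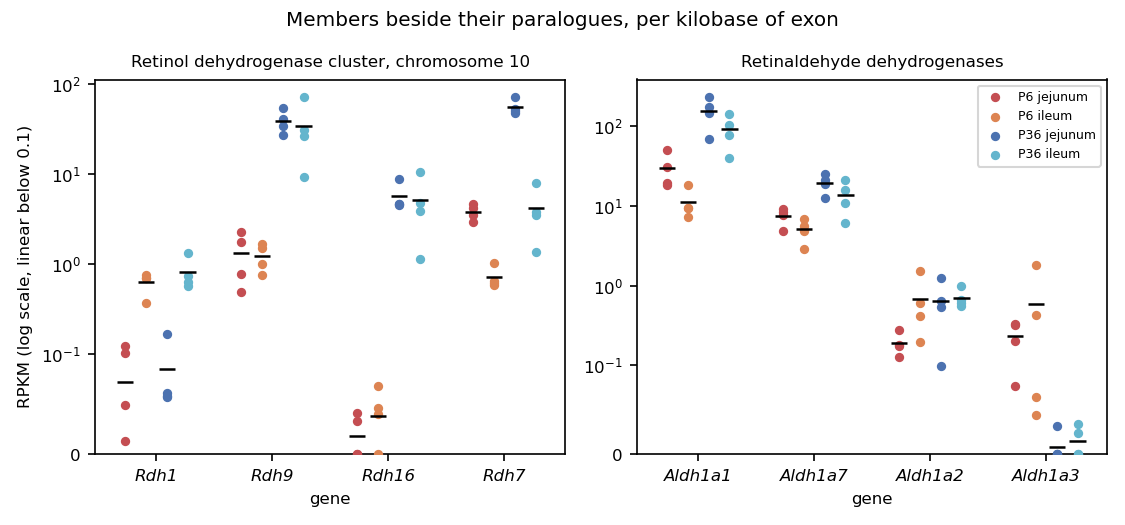
RPKM (CPM per kilobase of exon, log axis that is linear below 0.1) of Rdh7 and of Aldh1a1 beside their paralogues. Points are libraries, coloured by group, and black bars are group means (n = 4). Rdh7 dropped from jejunum to ileum at both ages while Rdh9 and Rdh16 were called in neither regional comparison. Rdh1 lay higher in the ileum, and Aldh1a1 was the highest of its family in each group mean.

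Retinal is oxidised to retinoic acid by the retinaldehyde dehydrogenases. Aldh1a1 (chr19:20601982-20643462, plus strand, 13 exonic blocks) encodes the most widely expressed of them. It stood at 62.2, 38.7, 100.3 and 37.0 CPM in the P6 jejunum and at 19.2, 14.6, 37.3 and 18.7 CPM in the P6 ileum. At P36 it stood at 461.9, 345.6, 140.1 and 297.7 CPM in the jejunum and at 289.1, 156.0, 80.0 and 207.0 CPM in the ileum. Replicate 3 was the highest of both P6 groups and the lowest of both P36 groups, and the regions overlapped at both ages.

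With age, Aldh1a1 rose 5.23-fold in the jejunum (log2 fold change 2.39, SE 0.45, adjusted p = 0.000371 by edgeR) and 8.15-fold in the ileum (3.03, SE 0.47, adjusted p = 4.91e-05), and the ages did not overlap in either region. The jejunum was higher than the ileum in 4 of 4 mice at both ages, by 1.98-fold to 3.25-fold at P6 and by 1.44-fold to 2.22-fold at P36. At P6 the log2 fold change was 1.41 (adjusted p = 0.0282, under the fold minimum). Over 20 alternatives that adjusted p lay between 0.000195 and 0.174, and with 1 library left out it was below 0.05 in 3 of 8 fits. At P36 the log2 fold change was 0.77 with an adjusted p of 0.266, and 0.79 with an adjusted p of 0.00545 with the mouse as a block. In the P36 ileum the 4 libraries ranked the same by Aldh1a1, by Rbp2 and by the enterocyte markers, and the part of the latter in the level of Aldh1a1 was not tested.

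Aldh1a1 lies within 125.6 kb of its near copy Aldh1a7 on chromosome 19, and the same limit holds for this pair. Aldh1a7 averaged 15.3 ± 3.81, 10.4 ± 3.45, 39.8 ± 10.6 and 27.7 ± 13.3 CPM in the P6 jejunum, P6 ileum, P36 jejunum and P36 ileum, with log2 fold changes with age of 1.38 and 1.41 that were under the fold minimum (adjusted p = 0.00354 and 0.00294 by edgeR). Aldh1a2 averaged 0.428 to 1.58 CPM over the groups and was called in no comparison. Aldh1a3 went the other way from Aldh1a1, with 67 and 180 counts over the P6 jejunum and ileum and 2 and 4 over those of P36. Its ileal counts at P6 depend on the doubtful libraries: the log2 fold change with age there was -5.07 (adjusted p = 0.00239), and -1.39 and no longer called without the 4 ileal libraries (adjusted p = 0.4). Of the summed RPKM of the 4 genes, Aldh1a1 made up 76.0 ± 11.2% in the P6 jejunum, 61.9 ± 16.6% in the P6 ileum, 87.8 ± 2.34% in the P36 jejunum, with 86.3 ± 0.697% in the P36 ileum.

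The P6 mice also differed among themselves. The titles of mice 1 and 3 share one number and those of mice 2 and 4 another, and what the number stands for is not given in the sources used here. Scarb1 averaged 30.0 CPM in the jejunum of mice 1 and 3 and 16.0 CPM in that of mice 2 and 4, and 15.3 and 4.99 CPM in the ileum. Aldh1a1 was also higher in mice 1 and 3, at 81.3 against 37.9 CPM in the jejunum and 28.2 against 16.7 CPM in the ileum. Lrat was the reverse, at 190.6 against 323.1 CPM in the jejunum and 59.6 against 110.9 CPM in the ileum. The pairs did not overlap in either region for these 3 genes or for Isx. With 2 mice in each pair no test was made. The share of all tested genes that separate in this way was not counted, so the separation cannot be called particular to these genes.

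A marker of another cell type moved with these pairs. The summed level of 4 Paneth cell markers was 806.3 and 568.4 CPM in the jejunum of mice 1 and 3 and 36.9 and 23.0 CPM in that of mice 2 and 4, and 653.1 and 464.1 against 44.0 and 48.2 CPM in the ileum. Nearly all of that difference was in Itln1, for intelectin 1, at 435 to 782 CPM in mice 1 and 3 and 4.36 to 10.3 CPM in mice 2 and 4. The defining Paneth gene Lyz1 lay between 6.03 and 20.3 CPM in all P6 libraries, Mmp7 between 1.36 and 13.2 CPM and Ang4 between 2.63 and 12.0 CPM. None of the 4 markers was at 0 in any P6 library, and their part in the gene levels was not tested. With the P6 groups reduced to mice 1 and 3, Rdh7 was no longer called between the regions at P6 (log2 fold change 1.95, adjusted p = 0.06) nor Aldh1a1 with age in the jejunum (1.93, adjusted p = 0.0106, under the fold minimum). With mice 2 and 4 alone, Aldh1a1 rose by 3.09 on that scale, and the fall of Scarb1 in the ileum was -2.71 against -4.36 with mice 1 and 3.

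The remaining genes of the pathway were taken from a list of 60, of which 45 were tested. Between the regions, 7 of the 45 were called at P6, 3 of them jejunal and 4 ileal, and 6 at P36, 4 of them jejunal and 2 ileal, beside 6.50% and 3.60% of all tested genes. With age, 21 were called in the jejunum, 13 up and 8 down, and 19 in the ileum, 10 up and 9 down, beside 16.4% of all tested genes in each region. The median log2 fold change of the 45 with age was 0.28 in the jejunum and 0.05 in the ileum, beside -0.01 and -0.03 over all tested genes. The median size of change, regardless of direction, was 1.73 and 1.41, beside 0.63 and 0.70 over all tested genes.

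**Figure D4:**
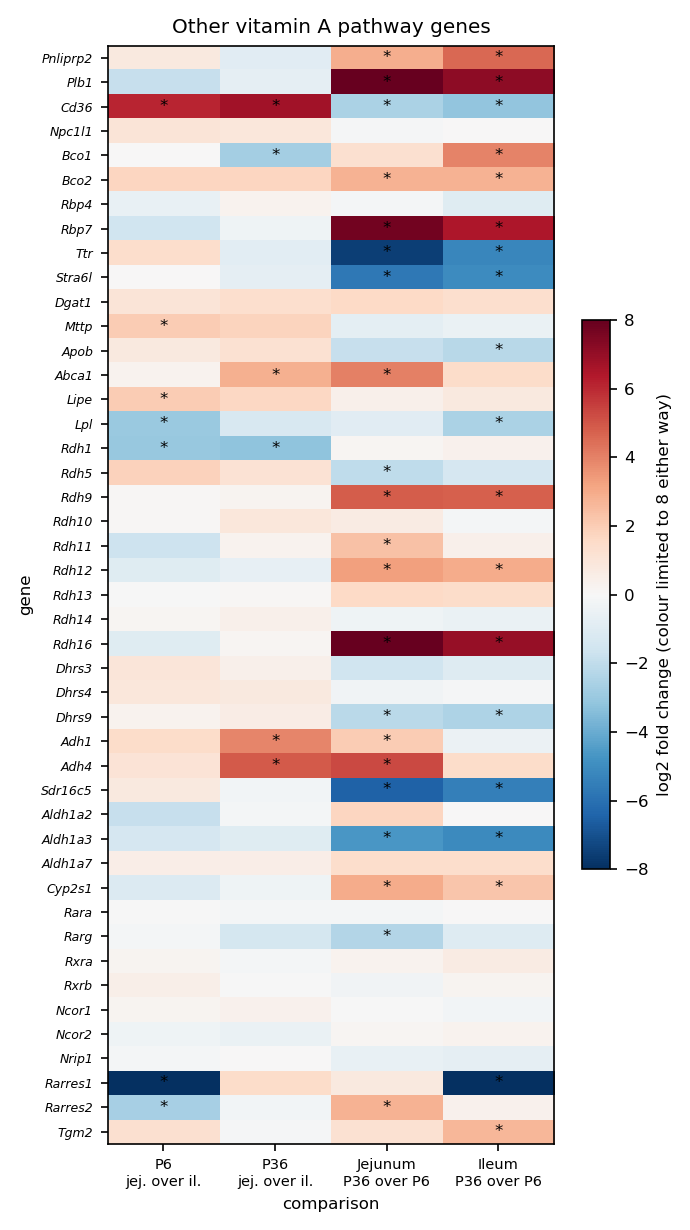
Log2 fold changes of the 45 other tested genes of the vitamin A pathway in the 4 comparisons, ordered by role from hydrolysis in the lumen to genes that respond to retinoic acid. Red is higher in the jejunum or at P36, blue is lower, and stars mark called genes. The age columns hold 21 and 19 stars and the regional columns 7 and 6.

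Among genes for hydrolysis in the lumen and uptake, Pnliprp2, a pancreatic lipase relative, rose in both regions, from 5.02 ± 1.23 to 37.0 ± 7.16 CPM in the jejunum (log2 fold change 2.88, adjusted p = 1.98e-06 by edgeR) and from 2.93 ± 1.23 to 70.3 ± 32.9 CPM in the ileum (4.58, adjusted p = 2.81e-08). Cd36, the fatty acid translocase, had the largest called regional difference among the jejunal genes of the list, at 444 ± 53.3 against 6.32 ± 5.71 CPM at P6 (6.12, adjusted p = 2.97e-06) and 75.2 ± 23.6 against 0.754 ± 0.450 CPM at P36 (6.71, adjusted p = 6.10e-06). It fell with age in both regions (-2.56 and -3.15, adjusted p = 0.000608 and 0.000539).

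Bco1, the enzyme that cleaves beta-carotene to retinal, is the other gene that Isx represses. Its levels were 0.586 ± 0.387 CPM in the P6 jejunum, 0.592 ± 0.452 CPM in the P6 ileum, 1.42 ± 0.491 CPM in the P36 jejunum and 9.37 ± 1.87 CPM in the P36 ileum, where the libraries lay between 6.69 and 10.8 CPM. It rose in the ileum with age (log2 fold change 3.99, SE 0.54, adjusted p = 1.25e-05 by edgeR) and was higher there than in the jejunum at P36 (-2.71, SE 0.50, adjusted p = 0.00133). Its P6 ileum values rest on 20, 6, 18 and 3 counts in replicates 1 to 4. The rise in the ileum was 3.24 with P6 mice 1 and 3 alone and 5.5 with mice 2 and 4 alone. In the jejunum the value with age was 1.26 (adjusted p = 0.0535). Of this pair of genes that Isx is known to repress, Scarb1 was lowest and Bco1 highest in the P36 ileum. Isx in that group averaged 218 ± 21.8 CPM, against 229 ± 16.8 CPM in the P6 ileum. The part of Isx in the level of either gene was not tested.

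Among binding proteins, surface receptors and dehydrogenases, 3 genes fell steeply in both regions. Stra6l, a relative of the retinol receptor gene Stra6, went from 522.5 ± 26.1 to 9.80 ± 0.552 CPM in the jejunum (log2 fold change -5.74, SE 0.15, adjusted p = 3.07e-13 by edgeR) and from 515.1 ± 29.2 to 15.9 ± 2.53 CPM in the ileum (-5.02, SE 0.14, adjusted p = 2.13e-12), while Stra6 itself did not pass the filter. Ttr, for transthyretin, the plasma partner of retinol-binding protein, went from 289.2 ± 68.8 to 1.57 ± 0.252 CPM in the jejunum and from 107.5 ± 76.4 to 2.81 ± 0.936 CPM in the ileum (-7.51 and -5.24, adjusted p = 7.76e-09 and 1.50e-07). Sdr16c5, a retinol dehydrogenase, went from 32.5 ± 3.38 to 0.361 ± 0.169 CPM and from 19.3 ± 12.7 to 0.427 ± 0.0420 CPM (-6.44 and -5.48, adjusted p = 5.99e-09 and 3.08e-08). Rbp7, another cellular retinol-binding protein gene, had 5 and 16 counts over the jejunum and ileum at P6 and 1114 and 1295 at P36.

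Of the 15 other tested oxidoreductases of retinol and retinal, 2 were called higher in the jejunum at P36, Adh1 and Adh4, and 1 in the ileum, Rdh1. Adh1, an alcohol dehydrogenase that also oxidises retinol, averaged 253 ± 38.1 CPM in the P36 jejunum and 16.6 ± 4.66 CPM in the P36 ileum (3.93 on the log2 scale, SE 0.26, adjusted p = 1.42e-07 by edgeR), against 61.9 ± 17.8 and 22.7 ± 6.01 CPM at P6. Adh4, of the same family, averaged 6.53 ± 2.35 CPM in the P36 jejunum and 0.0775 to 0.227 CPM in the other groups (4.89 between the P36 regions, adjusted p = 9.65e-06). Rdh11 averaged 9.89 ± 1.33 CPM in the P6 jejunum against 30.6 ± 1.11 CPM in the P6 ileum, and rose in the jejunum to 49.3 ± 2.85 CPM at P36 (2.32, SE 0.12, adjusted p = 4.06e-10). Cyp2s1, a cytochrome that can oxidise retinoic acid, rose in both regions, by 2.96 and 2.22 on the log2 scale (adjusted p = 1.32e-07 and 2.29e-06), while the 3 Cyp26 genes, the main retinoic acid hydroxylases, did not pass the filter.

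In export and storage, Mttp, which loads lipid onto chylomicrons, averaged 5731 ± 580 CPM in jejunal and 1395 ± 307 CPM in ileal epithelium at P6, a difference at the fold minimum (log2 fold change 2.04, adjusted p = 0.000583 by edgeR; 1.95 without replicate 2 of the P6 ileum, 1.97 without replicate 3 and 1.98 without replicate 1 of the P6 jejunum). Lipe, hormone-sensitive lipase, was also at it (2.04, adjusted p = 0.00633; 1.69 without replicate 4 of the P6 ileum and 1.97 without replicate 2 of the P6 jejunum). Lpl, lipoprotein lipase, was higher in the P6 ileum, at 5.12 ± 0.931 against 0.655 ± 0.384 CPM (-2.95, adjusted p = 0.00233), and fell in the ileum with age (-2.56, adjusted p = 0.00211). Abca1, a cholesterol exporter, averaged 121 ± 16.5 CPM in the P36 jejunum and 5.99 to 16.8 CPM in the other groups, and was called with age in the jejunum (4.04, adjusted p = 2.93e-06) and between the P36 regions (2.85, adjusted p = 0.000384).

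Genes named for their response to retinoic acid did not share a pattern. Rarres1 had 7235 counts over the P6 ileum libraries and 4, 7 and 2 counts over those of the P6 jejunum, P36 jejunum and P36 ileum. Rarres2 was called higher in the P6 ileum (log2 fold change -2.63, adjusted p = 0.00638 by edgeR), a call that rested on replicate 2, with -1.71 without it, and it rose in the jejunum with age (2.76, adjusted p = 0.00191). Tgm2, transglutaminase 2, averaged 75.7 ± 14.5, 30.6 ± 12.7, 175.8 ± 32.4 and 189.5 ± 5.65 CPM in the P6 jejunum, P6 ileum, P36 jejunum and P36 ileum, and was called with age in the ileum (2.63, adjusted p = 1.29e-06).

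For each of the 6 tested genes, the genes of most similar pattern were found by Pearson's r of log2 CPM over the 16 libraries, as a description in which group differences dominate. For Rbp2 these were Pbld1, Leap2 and Osbpl3 (r = 0.970, 0.968 and 0.967). For Rdh7 they were Ppap2a, Dlst and Slc5a1 (r = 0.986, 0.983 and 0.981), the last being the brush border glucose transporter gene. For Aldh1a1 they were Anpep, Slc35b1 and Lrrc59 (r = 0.963, 0.963 and 0.954), and Anpep, an aminopeptidase gene, is 1 of the 6 enterocyte markers used above. For Lrat they were Abcb11, Tgds and Rnf170 (r = 0.972, 0.969 and 0.967), and for Scarb1 Csrp2bp, Polg and Mfge8 (r = 0.982, 0.976 and 0.975). The closest genes to Isx were less close, Fundc1, Tshz2 and Nr2f2 (r = 0.901, 0.890 and 0.884).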

How the data were processed

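The authors made stranded mRNA libraries, trimmed reads (Trimmomatic 0.38), mapped them to mm10 (STAR, 2.5.3 in the submitters' processing notes) and counted read pairs on exons with featureCounts 1.6.3, reverse stranded. The deposited files hold raw counts per gene, which were used as they stood. Multimapping reads were not counted.

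Genes were kept by filterByExpr on the 4 groups and scaled by TMM. One edgeR 4.0.16 quasi-likelihood fit (R 4.3.3) over 16 libraries had 4 group means and no block. SE is the log2 fold change divided by the square root of F. CPM use the TMM factors, RPKM also the exonic length. The procedure was tested on simulated counts. Same-mouse deviations correlated with r of 0.157 to 0.391 across 13429 genes. Those of different mice of an age correlated with r of -0.367 to 0.232, a range that overlaps the first. Even so, each jejunal library correlated most with the ileal library of its own mouse, a pairing that the main fit did not use. Alternatives used DESeq2 1.42.0 and limma 3.58.1.

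Named genes are the 7 members, their paralogues, Bco1, up to 8 called pathway genes per comparison by adjusted p, and 3 genes of most similar pattern. The Cyp26 genes and Stra6 were named after their counts were seen. Beside the 60 genes of the pathway list, 1 more was left out of all its counts and is not reported here. Members and lists were chosen with earlier results of these data known.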

Additional observations from a re-analysis of the deposited data

Results flagged for a closer look

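In 134 sets of 4 libraries of the named genes, 9 had a library whose gap to the next exceeded Dixon's 95% critical share of the range, and chance gives about 1 in 20. Among the 7 vitamin A genes there was 1: Rdh7 was at 1.63 CPM in replicate 1 of the P6 ileum and at 0.932 to 1.03 CPM in the other libraries, all on 33 counts or fewer. In replicate 4 of the P6 ileum, Rarres1 was at 48.35 CPM against 99.52 to 102.1 CPM in the others, Lpl at 3.73 against 5.53 to 5.64 CPM, and Rdh1 at 1.42 against 2.71 to 2.91 CPM. In replicate 4 of the P36 jejunum, Rdh1 was at 0.640 against 0.221 to 0.235 CPM, and Aldh1a3 at 0.107 CPM against 0 in the others. Rdh16 was at 28.3 CPM in replicate 1 of the P36 jejunum against 14.5 to 15.0 CPM, and Cd36 at 0.0817 CPM in replicate 3 of the P36 ileum against 0.940 to 1.03 CPM. In the P6 jejunum, Tgm2 was at 54.1 CPM in replicate 2 against 80.2 to 85.1 CPM.

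For 10 other genes of the pathway the regional difference itself differed between the ages, by the interaction of the edgeR fit (P6 minus P36, jejunum over ileum, log2). It was negative for Rdh11 at -1.92 (adjusted p = 3.58e-06), Adh1 at -2.49 (0.00025), Adh4 at -3.80 (0.0205), Abca1 at -2.56 (0.0159) and Rarres1, whose value of -12.14 gives no size, since all groups but the P6 ileum held at most 7 counts. It was positive for Ttr at 2.27 (0.0266), Pnliprp2 at 1.70 (0.0244), Tgm2 at 1.41 (0.0311), Stra6l at 0.72 (0.0174) and Bco1 at 2.72 (0.0306). The Bco1 call was lost in 8 of the 16 fits that left out 1 library, with values of 2.18 to 2.74 and adjusted p of 0.0507 to 0.0981 there, and without the 4 ileal libraries (2.08, adjusted p = 0.0513). The libraries left out in those 8 fits were replicates 1 and 4 of the P6 jejunum, 2 of the P6 ileum, 3 and 4 of the P36 jejunum, and 2, 3 and 4 of the P36 ileum. The Ttr call was lost without replicate 2 or 4 of the P6 jejunum, 1, 2 or 4 of the P36 jejunum or 3 of the P36 ileum (values of 2.03 to 2.27, adjusted p 0.0513 to 0.062). The Pnliprp2 call was lost without replicate 2 or 4 of the P6 jejunum or 1 of the P6 ileum (values of 1.53 to 1.65, adjusted p 0.0507 to 0.0576). The Stra6l call was lost without replicate 2 of the P36 ileum (0.61, adjusted p = 0.059) and when scaled by library totals (0.58, adjusted p = 0.093), and the Adh4 call without replicate 3 of the P6 ileum (-3.24, adjusted p = 0.0953).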

How the results depend on the processing

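For the vitamin A genes, 608 of 618 values under the alternatives kept their side of the threshold, 3 lost a call, 7 gained one and 0 called values changed sign; 13 uncalled values changed sign by less than 1 SE. For the other named genes the counts were 1521 of 1586 kept, 45 lost, 10 gained and 10 reversed. Among the 1521 kept, 68 uncalled values changed sign by less than 1 SE. With the mouse as a replicate block (limma's duplicateCorrelation between the ages), the calls of the vitamin A genes were 2 at P6, 2 at P36, 4 and 4 with age and 0 in the interaction, as without it, and no count of calls moved by over 1.5 times. With no fold change minimum, calls rose to 3484, 2163, 6927 and 7475 of all genes at P6, at P36, in the jejunum and in the ileum, to 5 of the vitamin A genes at P6 (Lrat, Aldh1a1 and Isx added), and to 18, 16 and 29 of the wider list at P6, at P36 and in the ileum. Interaction calls were 2251 of all genes and 1 of the vitamin A genes (Rdh7) without the 4 ileal libraries, and 642 and 4 of the wider list with P6 mice 2 and 4 alone; with mice 1 and 3 alone, 1 vitamin A gene was called at P6. With 1 library left out, interaction calls ran from 835 to 1912 of all genes (highest without replicate 4 of the P6 ileum), from 0 to 1 of the vitamin A genes and from 6 to 15 of the wider list (lowest without replicate 4 of the P6 jejunum), and P36 regional calls of the wider list from 6 to 12 (highest without replicate 1 of the P36 ileum). Scaling by library totals moved regional log2 fold changes by -0.29 at P6, -0.14 at P36 and -0.15 in the interaction, and the share of calls higher in the jejunum at P6 from 33.9% to 22.7% and the positive share of the interaction from 42.3% to 24.2%, with no call of a vitamin A gene changed.

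Values that changed sign were of genes with no call in either fit, and the 10 reversed ones, which moved by 1 SE or more, are given here. Without the 4 ileal libraries, Aldh1a3 at P6 was 2.05, Bco1 at P6 -0.75, Rara with age in the ileum -0.41 and Rdh1 with age in the ileum -0.15. With 1 library left out, Aldh1a3 at P6 ran from -1.74 to 0.35, the latter without replicate 2 of the P6 ileum. With P6 mice 1 and 3 alone, Rdh9 at P6 was -1.33 and Rara with age in the ileum -0.45. With mice 2 and 4 alone, Rara at P6 was 0.67, Rarg at P6 0.44 and Rdh9 in the interaction 1.00. The cause was not tested. The settings that leave out the 4 ileal libraries or keep 2 of the P6 mice were chosen after seeing the data. Rarb, at 0 to 10 counts a library, did not pass the filter, and how far depth limited it was not tested.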
